A study of Homo sapiens with 2 samples.

Results

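The collagen chain genes were examined in total RNA of HCT116, a human cell line established from a colorectal carcinoma, transfected either with an siRNA against PHF5A or with a control siRNA. PHF5A belongs to SF3b, the splicing complex that grips the branch point of an intron, and the study asked which transcripts it regulates in colorectal cancer cells. Members were the rows whose symbol is COL, a type number, A and a chain number, which gave 44 of 50867 gene rows. There was 1 library for the PHF5A knockdown and 1 for the control, both from the same line. No difference given here therefore has a replicate check, and no p-value is given. The knockdown cells are described by the siRNA alone, so loss of PHF5A and any action of that siRNA on other transcripts cannot be told apart.

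The target, PHF5A, had 91 counts after knockdown and 367 in the control, 3.93-fold lower (3.12 to 5.0), in the direction of its label. Ranges beside ratios, here and below, are 95% exact intervals for counting error alone. Depth was 25897412 counts for the knockdown library and 26552789 for the control library. The control library also held heart muscle transcripts, which are not defining genes of a colorectal line. Their markers summed to 13.2 CPM (counts scaled to the library total) after knockdown and 3812 CPM in the control, and they are given with the other cell type markers at the end.

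Collagens are extracellular proteins in which 3 chains wind into a triple helix, some from identical chains and some from different ones. Fibril-forming types give tissues their tensile strength, type IV builds the sheet of basement membranes under epithelia and vessels, and type VI forms beaded filaments close to cells. In the colon, much of the fibrillar collagen is made by stromal cells such as fibroblasts, and epithelial cells rest on a type IV network.

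Of the 44 genes, 6 were near zero in the knockdown library, meaning at least 50 counts in the control library and a level at least 20-fold lower after knockdown. None was near zero in the control library. A further 21 were present in both libraries with at least 10 counts in each, 10 were sparse with at most 29 counts, and 7 had no count in either library. The 6 were COL1A2, COL2A1, COL3A1, COL4A1, COL4A2 and COL5A1, which together held 48 counts after knockdown and 3317 in the control. The 21 present in both held 15406 counts after knockdown and 19711 in the control. Partners of 1 molecule fell on both sides, as COL1A1 and COL5A2 were present in both libraries while COL1A2 and COL5A1 were near zero after knockdown.

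Upstream sequence is shown for members that sit back to back on a chromosome and for a pair that contrasts in its counts. COL4A1 and COL4A2, both near zero after knockdown, are transcribed away from each other with 126 bases between their RefSeq starts. COL4A5 and COL4A3 each belong to 1 of the other type IV pairs placed in this way, which kept counts in both libraries. COL5A1 was near zero after knockdown, and COL6A2 was the most abundant collagen in that library. Bases lie just before the RefSeq start (GRCh38.p14), and for COL4A1 to COL4A2 they are the whole stretch between the starts, on the COL4A2 strand. Capitals mark GGGCGG (the GC box letters), CCAAT and TATAAA, each searched on both strands. The regions are chr13:110307158-110307283 (+), chrX:108439588-108439837 (+), chr2:227164374-227164623 (+), chr9:134641553-134641802 (+) and chr21:46097862-46098111 (+), in the order shown.
COL4A1 to COL4A2: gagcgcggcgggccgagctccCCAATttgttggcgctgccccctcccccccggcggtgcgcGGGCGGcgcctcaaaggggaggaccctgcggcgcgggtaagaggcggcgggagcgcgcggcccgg
COL4A5: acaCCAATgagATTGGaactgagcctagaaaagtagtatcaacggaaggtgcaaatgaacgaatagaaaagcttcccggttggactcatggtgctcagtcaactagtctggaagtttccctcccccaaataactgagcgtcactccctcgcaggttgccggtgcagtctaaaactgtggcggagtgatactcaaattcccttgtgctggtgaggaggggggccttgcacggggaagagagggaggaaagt
COL4A3: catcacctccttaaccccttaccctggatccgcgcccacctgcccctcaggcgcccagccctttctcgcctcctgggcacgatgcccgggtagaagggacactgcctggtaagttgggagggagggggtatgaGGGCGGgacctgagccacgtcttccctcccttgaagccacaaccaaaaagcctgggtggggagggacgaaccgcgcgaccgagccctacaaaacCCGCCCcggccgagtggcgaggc
COL5A1: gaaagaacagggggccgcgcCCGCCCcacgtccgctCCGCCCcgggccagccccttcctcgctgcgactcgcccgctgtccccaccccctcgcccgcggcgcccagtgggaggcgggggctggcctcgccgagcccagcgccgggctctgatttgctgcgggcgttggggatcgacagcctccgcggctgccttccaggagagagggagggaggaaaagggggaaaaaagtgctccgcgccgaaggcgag
COL6A2: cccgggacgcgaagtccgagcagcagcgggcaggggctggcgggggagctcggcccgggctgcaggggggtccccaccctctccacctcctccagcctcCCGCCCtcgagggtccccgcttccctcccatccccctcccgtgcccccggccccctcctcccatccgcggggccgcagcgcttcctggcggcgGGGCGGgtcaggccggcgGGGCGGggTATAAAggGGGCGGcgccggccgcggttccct

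The stretch shared by COL4A1 and COL4A2 was 80.2% G and C and held 1 GGGCGG and 1 CCAAT. The COL4A5 window was 51.2% G and C and held 2 CCAAT and no GGGCGG, whereas the COL4A3 window held 2 GGGCGG and no CCAAT. COL5A1 had 2 GGGCGG, and COL6A2 had 4 GGGCGG and 1 TATAAA. Among all 35116 RefSeq promoter windows of 250 bases, 42.6% held GGGCGG, 32.0% CCAAT and 10.7% TATAAA. Over the 126 bases before the start the shares were 34.6%, 21.1% and 5.87%. RefSeq windows matched 32 of the 44 members. Among these, all 3 near-zero members held GGGCGG and 2 held CCAAT, and of the 17 present in both libraries 10 held GGGCGG and 4 held CCAAT. The 3 were COL4A1, COL4A2 and COL5A1. The windows of COL4A1 and COL4A2 both contain the stretch between their starts, so its GGGCGG and CCAAT were counted for each of them. These matches describe letters in a window and no more.

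Levels between genes are given per length, as FPKM (counts per kilobase of gene, scaled to the library total). A single count per kilobase of gene stood for 0.0386 FPKM after knockdown and 0.0377 FPKM in the control. COL6A2 at 24.3 FPKM and COL6A1 at 22.97 FPKM led the knockdown library, followed by COL18A1 at 8.34 FPKM. The same 3 genes led the control library, with COL6A1 at 21.3, COL6A2 at 19.8 and COL18A1 at 15.6 FPKM. They made up 82.8% of the summed collagen FPKM after knockdown and 63.9% in the control. At least 1 FPKM was reached by 8 members in the knockdown library and by 11 in the control library. COL12A1 and COL1A1 came next in both. After them stood COL9A2, COL9A3 and COL4A5 in the knockdown library, and COL3A1, COL4A2, COL4A5 and COL4A1 in the control library. Summed over all 44 genes, collagen took 598 CPM after knockdown and 871 CPM in the control, 1.46-fold lower after knockdown (1.43 to 1.49).

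**Figure D1:**
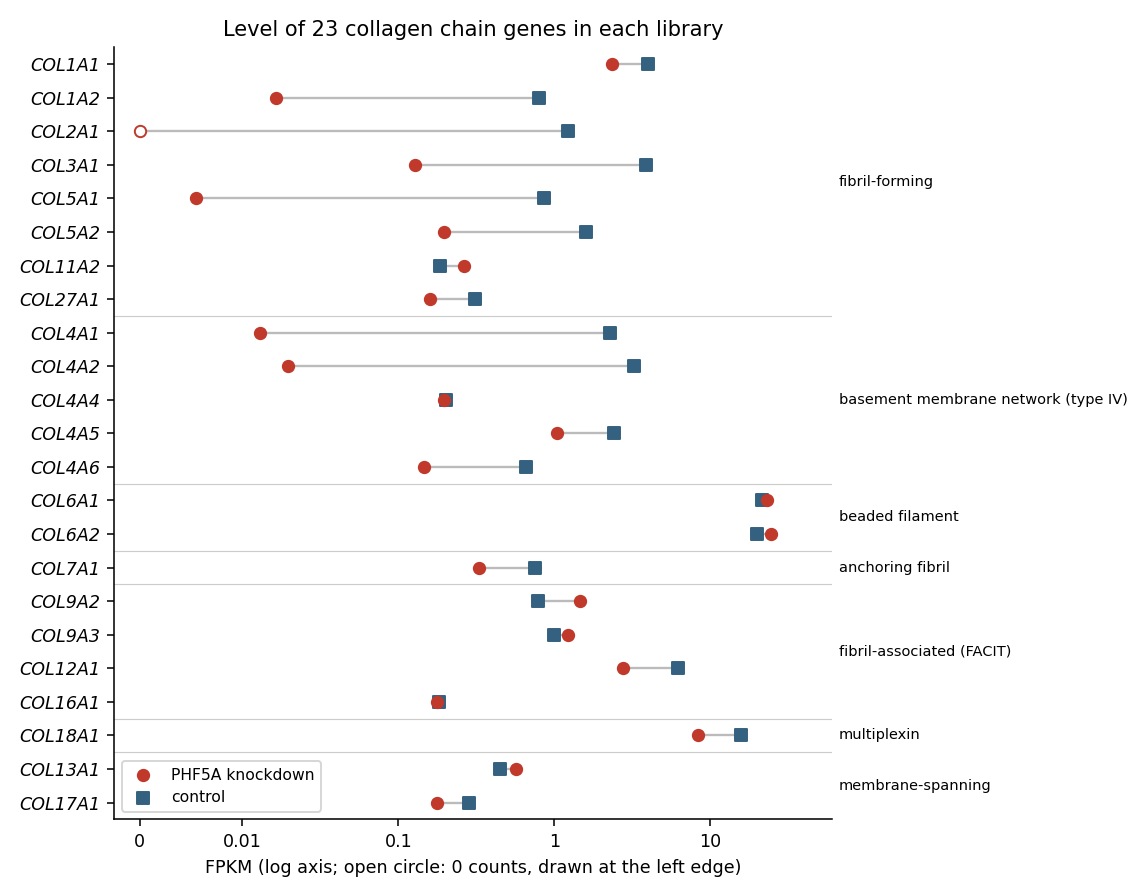
FPKM on a log axis of the 23 collagen chain genes with at least 50 counts in the higher library, by structural class, with a circle for the PHF5A knockdown library and a square for the control library (1 library each). COL1A2, COL2A1, COL3A1, COL4A1, COL4A2 and COL5A1 lie far left after knockdown, between 0 and 0.128 FPKM against 0.802 to 3.86 FPKM in the control, while COL6A1 and COL6A2 stay above 19 FPKM in both.

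The change in level was compared for the 23 members with at least 50 counts in the higher library, as the ratio of knockdown to control CPM. At least 2-fold lower after knockdown were 11 of the 23 (47.8%), and none was at least 2-fold higher. Among all 12381 genes compared in the same way, 16.6% were at least 2-fold lower and 5.07% at least 2-fold higher. The 20-fold mark was passed downward by 6 of the 23 collagen genes (26.1%) and by 1.99% of all genes, and upward by no collagen gene and by 0.137% of all genes, with a count of 0 in 1 library taken as past the mark. The median log2 ratio was -0.95 for the collagen genes and -0.24 for all genes. Of the 17 compared members that were present in both libraries, 5 were at least 2-fold lower, beside 14.4% of the 12033 such genes in all, and the median log2 ratio of the 17 was -0.68. On the scale of FPKM + 1, for genes reaching 1 FPKM in either library, 5 of 13 members were at least 2-fold lower and 0 higher, beside 6.2% and 2.53% of 8957 genes. These shares describe 2 libraries and carry no test. The split of 11 lower and 0 higher became 8 and 1 after centring on the median of all genes or upper-quartile scaling. COL4A5, COL7A1 and COL12A1 left the lower group and COL9A2 entered the higher one. Of all genes, 11.6% were then lower and 8.13% higher with median centring, and 11.1% and 8.96% with upper-quartile scaling.

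**Figure D2:**
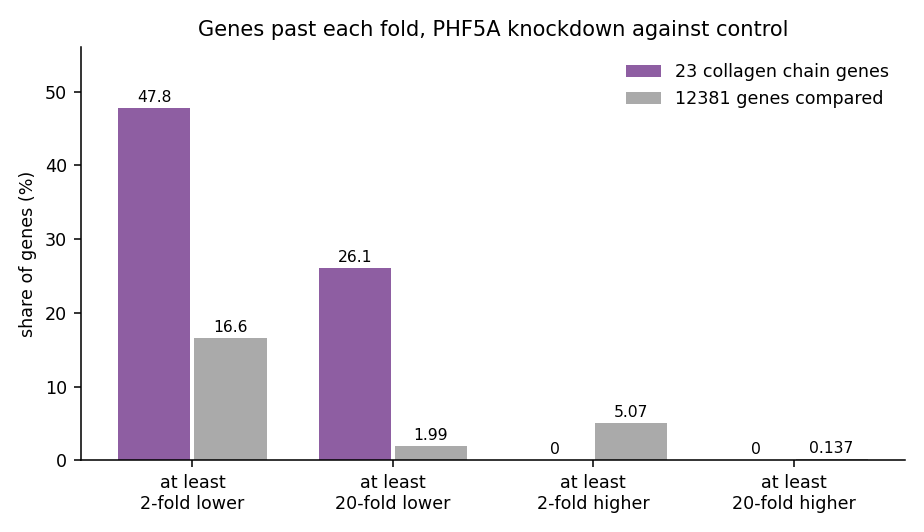
Share in percent of the 23 collagen chain genes, beside that of the 12381 genes compared, that lay past each fold in the PHF5A knockdown library relative to the control library. The collagen share is 47.8% at 2-fold lower and 26.1% at 20-fold lower, against 16.6% and 1.99% of all genes, and 0 on the higher side.

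Among the fibril-forming chains, 8 of 11 could be compared and 5 were at least 2-fold lower after knockdown, with 0 higher. As a class they held 40.1 CPM after knockdown and 148 CPM in the control, 3.70-fold lower (interval 3.45 to 3.96). COL3A1 (ENSG00000168542, chromosome 2, 188974320 to 189012746, GRCh38), the homotrimeric fibril chain of skin and vessel walls, had 31 counts after knockdown and 959 in the control. Its level was 0.128 FPKM after knockdown and 3.86 FPKM in the control, 30.2-fold lower after knockdown (21.1 to 44.7). COL1A2 (chromosome 7, 94394561 to 94431232), the second chain of type I collagen, had 7 counts (0.0163 FPKM) after knockdown and 352 (0.802 FPKM) in the control, 49.0-fold lower (23.6 to 123). Both remained detectable after knockdown, unlike COL2A1.

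COL2A1 (chromosome 12, 47972965 to 48004486), the main fibril chain of cartilage, had 0 counts after knockdown and 270 (1.22 FPKM) in the control. With 3 counts put in place of that 0, it was 87.8-fold lower, and the lower limit of its exact interval was 70.9-fold. COL5A1 (chromosome 9, 134641774 to 134844843), a chain of the type V collagen that regulates fibril width, had 2 counts (0.00502 FPKM) after knockdown and 352 (0.862 FPKM) in the control. Its CPM ratio was 0.00583, with a counting interval of 0.000703 to 0.0212. Its partner COL5A2 (chromosome 2, 189031896 to 189179879) kept 49 counts (0.197 FPKM) after knockdown against 409 (1.60 FPKM) in the control, 8.14-fold lower (6.04 to 11.2). The 2 type V chains were therefore both lower, and by different amounts.

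COL1A1 (ENSG00000108821, chromosome 17, 50183289 to 50201632), the first chain of type I collagen, had 786 counts after knockdown and 1362 in the control. Its level was 2.34 FPKM after knockdown and 3.95 FPKM in the control, 1.69-fold lower (1.55 to 1.85), which is short of 2-fold. COL27A1, a fibril chain of developing cartilage, had 80 counts (0.160 FPKM) after knockdown and 159 (0.311 FPKM) in the control and was 1.94-fold lower (1.47 to 2.57), just inside the 2-fold mark. COL11A2, a minor fibril chain of cartilage, had 69 counts (0.263 FPKM) after knockdown and 50 (0.186 FPKM) in the control, with a ratio of 1.41 whose interval, 0.969 to 2.08, held 1. COL5A3, COL11A1 and COL24A1 had 11, 0 and 4 counts after knockdown and 18, 9 and 0 in the control, too few to be compared.

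The basement membrane chains of type IV divided into 3 neighbouring pairs with different values. COL4A1 (ENSG00000187498, chromosome 13, 110148963 to 110307149) and COL4A2 (ENSG00000134871, chromosome 13, 110305812 to 110513027) make the common type IV molecule found under most epithelia and around vessels. COL4A1 had 3 counts (0.0129 FPKM) after knockdown and 544 (2.28 FPKM) in the control, a ratio of 0.00565 (interval 0.00116 to 0.0166). COL4A2 had 5 counts (0.0196 FPKM) after knockdown and 840 (3.22 FPKM) in the control and was 164-fold lower (69.9 to 506). The interval of the COL4A2 ratio lies inside that of COL4A1. The deposited loci of the 2 genes overlap by 1338 bases on opposite strands, so reads there could be given to either one if strand was not used.

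COL4A5 (chromosome X, 108439844 to 108697545) and COL4A6 (chromosome X, 108155607 to 108439497) encode the chains of a further epithelial type IV molecule, and COL4A5 also joins COL4A3 and COL4A4 in kidney glomeruli. COL4A5 kept 328 counts (1.04 FPKM) after knockdown against 777 (2.39 FPKM) in the control, 2.31-fold lower (2.03 to 2.64). COL4A6 had 49 counts (0.146 FPKM) after knockdown and 227 (0.662 FPKM) in the control and was 4.52-fold lower (3.31 to 6.29). The 2 chains were both lower, and their intervals do not overlap.

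COL4A4 had 50 counts (0.195 FPKM) after knockdown and 53 (0.202 FPKM) in the control, with a ratio of 0.967 (0.644 to 1.45), and COL4A3 had 23 after knockdown and 18 in the control. At these counts a difference up to the bounds of the interval could not have been seen. Over all 6 genes, type IV chains took 17.7 CPM after knockdown and 92.6 CPM in the control, 5.24-fold lower (4.74 to 5.80). In the control library COL4A1 and COL4A2 made up most of that sum, and in the knockdown library COL4A5 did.

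**Figure D3:**
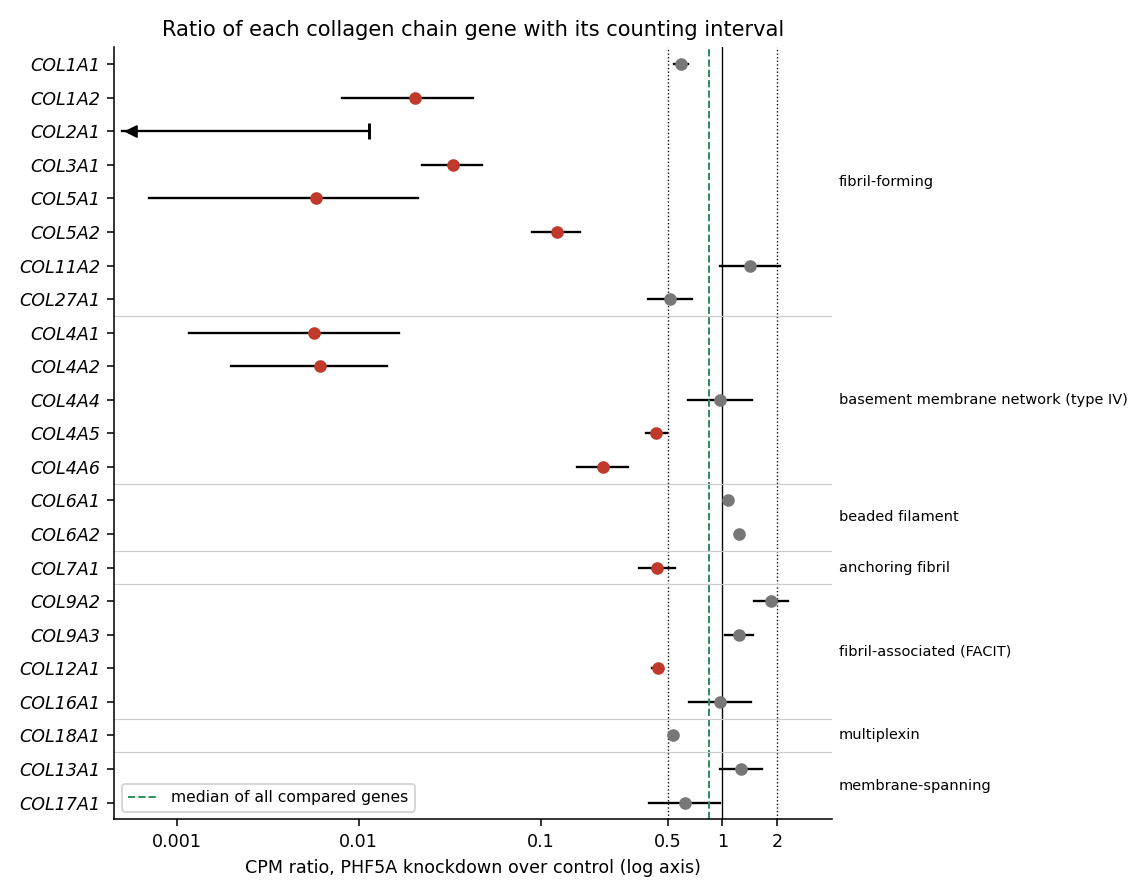
Ratio of knockdown to control CPM on a log axis for the 23 collagen chain genes, with bars for the 95% exact counting interval (1 library a group). Red points are at least 2-fold lower, dotted lines mark 2-fold, the dashed line is the median of all compared genes, and the arrow for COL2A1 starts at its bound of 87.8-fold lower. COL4A1, COL4A2 and COL5A1 lie near 0.006 and COL6A1, COL6A2 and COL9A3 just right of 1.

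Type VI chains were the most abundant collagens, and the 2 of 5 that could be compared lay within 2-fold. COL6A1 (ENSG00000142156, chromosome 21, 45981737 to 46005050) had 4412 counts after knockdown and 4196 in the control, a ratio of 1.08 (1.03 to 1.12). COL6A2 (ENSG00000142173, chromosome 21, 46098097 to 46132849), which lies 93046 bases farther along, had 5109 counts after knockdown and 4262 in the control, a ratio of 1.23 (1.18 to 1.28). Their higher CPM depended on the scaling, since on the TPM scale, where each library's FPKM values sum to the same total, the log2 ratios were -0.31 for COL6A1 and -0.12 for COL6A2. COL6A3, the long chain of the molecule, had only 14 counts after knockdown and 24 in the control. COL6A6 had 0 counts after knockdown and 13 in the control, and COL6A5 had none in either library.

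COL18A1 (ENSG00000182871, chromosome 21, 45405137 to 45513720), a heparan sulfate collagen of basement membranes whose tail is endostatin, had 2467 counts after knockdown and 4741 in the control. Its level was 8.34 FPKM after knockdown and 15.6 FPKM in the control, 1.87-fold lower (1.78 to 1.97). SLC19A1, on the other strand, overlaps its locus with 1649 counts after knockdown and 2328 in the control, so part of the COL18A1 count is uncertain. COL15A1, its relative, had 5 counts after knockdown and 3 in the control. COL7A1, the anchoring fibril chain that fastens epithelium to stroma, had 114 counts (0.328 FPKM) after knockdown and 266 (0.746 FPKM) in the control and was 2.28-fold lower (1.82 to 2.86).

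Of 10 fibril-associated chains 4 were compared, with ratios on both sides of 1, and 1 was at least 2-fold lower. COL12A1 (chromosome 6, 75084326 to 75206051), which sits on the surface of type I fibrils, had 1085 counts (2.74 FPKM) after knockdown and 2528 (6.23 FPKM) in the control, 2.27-fold lower (2.12 to 2.44). COL9A2 and COL9A3, chains of the type IX collagen of cartilage fibrils, had higher CPM after knockdown, by less than 2-fold. COL9A2 had 247 counts (1.46 FPKM) after knockdown and 137 (0.788 FPKM) in the control, a ratio of 1.85 (1.49 to 2.29), and COL9A3 had 283 (1.23 FPKM) after knockdown and 235 (0.994 FPKM) in the control, a ratio of 1.23 (1.03 to 1.47). On the TPM scale COL9A3 turned to a log2 ratio of -0.12 and COL9A2 stayed above 0 at 0.47. TCFL5 overlaps COL9A3 on the other strand with 46 counts after knockdown and 85 in the control. COL9A1, the remaining type IX chain, had only 2 counts after knockdown and 10 in the control. COL16A1 had 54 counts (0.178 FPKM) after knockdown and 57 (0.183 FPKM) in the control and a ratio of 0.971 (0.657 to 1.43).

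Of the membrane-spanning chains, COL13A1 had 130 counts (0.566 FPKM) after knockdown and 105 (0.446 FPKM) in the control, a ratio of 1.27 (0.974 to 1.66), which was -0.08 as a log2 ratio on the TPM scale. COL17A1, the collagen of hemidesmosomes, had 34 counts (0.176 FPKM) after knockdown and 56 (0.282 FPKM) in the control and a ratio of 0.623 (0.394 to 0.970). COL25A1 had 0 counts after knockdown and 10 in the control, and COL23A1 had none. COL26A1, outside the structural classes used here, had 12 counts after knockdown and 31 in the control and a ratio of 0.397 (0.186 to 0.795). These small counts leave wide intervals, and of the 4 genes with a count COL17A1, COL25A1 and COL26A1 had an interval below 1, while that of COL13A1 held 1.

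The 10 sparse members were COL6A6, COL8A1, COL9A1, COL11A1, COL14A1, COL15A1, COL20A1, COL21A1, COL24A1 and COL25A1. They had 0 to 13 counts each after knockdown and 0 to 29 in the control. By CPM 7 of the 10 were lower after knockdown and 3 higher, and the interval excluded 1 for the 7 lower ones. COL21A1, with 0 counts after knockdown and 22 in the control, was 7.15-fold lower with 3 counts in place of 0 (exact lower limit 5.34). COL8A1, a chain of the network under corneal endothelium, had 1 count after knockdown and 8 in the control, and COL20A1 had 13 after knockdown and 8 in the control. COL14A1, a fibril-associated chain, with 7 counts after knockdown and 29 in the control, had a ratio of 0.247 (0.0915 to 0.577). The 7 members without counts were COL6A5, COL8A2, COL10A1, COL19A1, COL22A1, COL23A1 and COL28A1. A count of 0 allows up to 3 counts, which is 0.116 CPM in the knockdown library and 0.113 CPM in the control library.

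Chains that assemble into 1 molecule can be compared within a library by their FPKM, and these pairs were chosen after the values were seen. COL1A1 was 143-fold above COL1A2 after knockdown (interval 69.1 to 357) and 4.93-fold above it in the control (4.38 to 5.56). Type I molecules usually hold both chains, with more of COL1A1 than of COL1A2. COL5A1 was at 0.0255 of the COL5A2 level after knockdown (0.00301 to 0.0972) and at 0.538 of it in the control (0.465 to 0.622). Set beside the chain of another type IV molecule, COL4A2 was at 0.0190 of the COL4A5 level after knockdown (0.00612 to 0.0447), against 1.35 times that level in the control (1.22 to 1.48). In each of these comparisons the intervals of the knockdown and control libraries lie apart. Each sets a near-zero gene against a gene present in both libraries, so this restates how the genes were sorted.

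The remaining pairs differed by varying amounts. COL4A1 was at 0.655 of COL4A2 after knockdown (0.102 to 3.37) and at 0.707 of it in the control (0.633 to 0.788), although the knockdown ratio rests on 3 and 5 counts. COL6A1 was at 0.944 of COL6A2 after knockdown (0.907 to 0.983) and at 1.08 of it in the control (1.03 to 1.12). COL4A5 stood 7.07-fold above COL4A6 after knockdown (5.22 to 9.75) and 3.62-fold above it in the control (3.11 to 4.21). COL9A2 was at 1.19 times the COL9A3 level after knockdown (0.997 to 1.41) and at 0.793 of it in the control (0.638 to 0.983), and COL4A3 was at 0.457 of COL4A4 after knockdown (0.266 to 0.762) and at 0.337 of it in the control (0.186 to 0.585). COL6A1 exceeded COL6A3 by far in both libraries, 1106-fold after knockdown (658 to 2024) and 613-fold in the control (412 to 959). COL9A2 stood 178-fold above COL9A1 after knockdown (48.9 to 1481) and 19.8-fold above it in the control (10.4 to 42.2). COL11A2 stood 29.4-fold above COL11A1 after knockdown with 3 counts in place of 0 for COL11A1 (exact lower limit 23.3). In the control COL11A2 stood 7.11-fold above COL11A1 (3.46 to 16.4). Over the 11 pairs computed, the intervals of the knockdown and control libraries lie apart for 8. They overlap for COL4A1 over COL4A2, COL4A3 over COL4A4 and COL6A1 over COL6A3. FPKM uses a fixed length per gene, so these differences between libraries restate the CPM ratios of the genes and add no support.

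**Figure D4:**
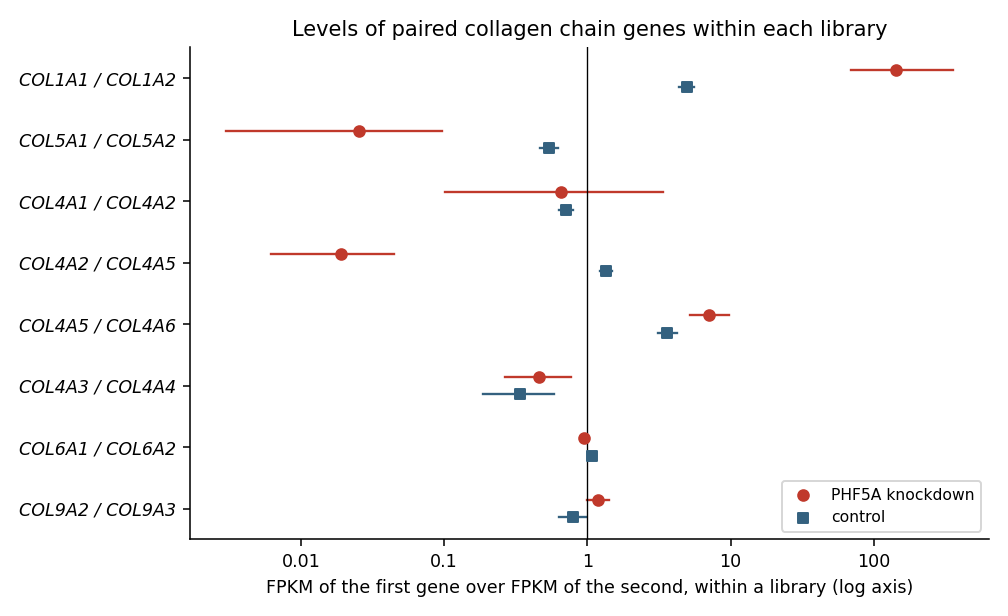
Ratio of FPKM for 8 pairs of collagen chain genes that can assemble together (COL4A2 and COL4A5, set side by side from different type IV molecules), within the PHF5A knockdown library (circles) and the control library (squares), on a log axis with 95% exact counting intervals. COL1A1 over COL1A2 is 143 after knockdown and 4.93 in the control, while COL6A1 over COL6A2 is close to 1 in both.

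Position and gene structure were set beside these values. By the deposited loci 9 pairs of members are neighbours within 1 megabase, 3 of them back to back, all of type IV. COL3A1 and COL5A2 lie tail to tail 19149 bases apart on chromosome 2, with ratios of 0.0331 and 0.123. COL18A1 (0.534), COL6A1 (1.08) and COL6A2 (1.23) follow each other on chromosome 21. The 6 near-zero members lie on 5 chromosomes. They have 48 to 66 annotated exons (median 52, the transcript with most exons in GENCODE release 29), and the 21 present in both libraries have 13 to 118 (median 51). The exon numbers of the 2 groups overlap.

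Genes that modify, secrete, cross-link, bind or cut collagen were read from lists, and each list's counts stand beside 16.6% of all compared genes at least 2-fold lower and 5.07% at least 2-fold higher. Of 17 modifying enzymes and chaperones 15 were compared, and 2 were at least 2-fold lower and 0 higher, with a median log2 ratio of -0.08 beside -0.24 for all genes. P3H3, a prolyl 3-hydroxylase family member, had 312 counts after knockdown and 1461 in the control, 4.57-fold lower (4.04 to 5.18). COLGALT2, which adds galactose to hydroxylysine, had 10 counts after knockdown and 55 in the control and was 5.36-fold lower (2.71 to 11.8). The other 13 lay within 2-fold. Among them, named after their values were seen, SERPINH1, the collagen chaperone HSP47, had 2606 counts after knockdown and 2591 in the control (ratio 1.03, 0.976 to 1.09). P4HB, a subunit of prolyl 4-hydroxylase, had 36777 after knockdown and 28950 in the control (ratio 1.30, 1.28 to 1.32).

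Of 17 secretion and processing genes 14 were compared, with a median of -0.23, and 1 was lower and 1 higher. PCOLCE2, an enhancer of procollagen cleavage, had 17 counts after knockdown and 53 in the control, 3.04-fold lower (1.73 to 5.60). MIA3, which loads procollagen into carriers at endoplasmic reticulum exit sites, had 273 counts after knockdown and 124 in the control and a ratio of 2.26 (1.82 to 2.81). On the TPM scale without a pseudocount the list had 5 lower and 0 higher, beside 31.1% and 2.23% of all genes on that scale. Of 5 lysyl oxidases, the enzymes that cross-link collagen, 4 were compared and LOXL2 was lower, with 1654 counts after knockdown and 5069 in the control (2.99-fold, 2.83 to 3.16). The median of the 4 was -0.56. LOX itself had 0 counts after knockdown and 47 in the control.

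Collagen receptors had 5 of 10 members compared, a median of -0.75 and 2 lower. DDR1, a collagen-activated receptor tyrosine kinase of epithelia, had 5121 counts after knockdown and 11792 in the control, 2.25-fold lower (2.17 to 2.32). ITGA1, an integrin chain that binds type IV collagen, had 12 counts after knockdown and 115 in the control and was 9.35-fold lower (5.15 to 18.6). With median centring 1 receptor remained past 2-fold. Of 8 collagen-degrading enzymes 2 were compared, with a median of -0.91, and neither passed 2-fold.

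Of 16 collagen-binding matrix proteins 8 were compared, and 6 were at least 2-fold lower and 0 higher, beside 16.6% and 5.07% of all genes. Their median was -3.54, or -3.06 with genes at 0 placed at the floor of 3 counts. NID2, a nidogen that ties laminin to type IV collagen, had 0 counts after knockdown and 367 in the control. With 3 counts in place of that 0 it was 119-fold lower (exact lower limit 96.5). NID1 had 1 count after knockdown and 199 in the control, a ratio of 0.00515 (0.000130 to 0.0290). SPARC, which binds fibrillar and type IV collagen, had 16 counts after knockdown and 621 in the control and was 37.9-fold lower (23.1 to 66.6). Both nidogens and SPARC thus passed the 20-fold mark that defines the near-zero chains.

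LUM, a small proteoglycan of fibrils, had 0 counts after knockdown and 60 in the control. With 3 counts in place of that 0 it was 19.5-fold lower (exact lower limit 15.4). Taken at 0, LUM also passed the 20-fold mark by the rule given above. FN1, fibronectin, had 292 counts after knockdown and 1071 in the control and was 3.58-fold lower (3.14 to 4.09). THBS1, thrombospondin, had 473 counts after knockdown and 999 in the control and was 2.06-fold lower (1.84 to 2.30). With median centring 5 of the 6 remained past 2-fold.

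Cell type markers were read beside the collagen values, and their counts beside the same 16.6% of all genes at least 2-fold lower and 1.99% at least 20-fold lower. For the heart muscle cells named above, the 2-fold mark was passed downward by 17 of the 18 and the 20-fold mark by 15, and 9 had 0 counts after knockdown while none did in the control. TNNI3, at 229 counts after knockdown and 334 in the control, was the exception. The 18 ranged from 0 to 2.26 FPKM after knockdown and from 2.31 to 68.0 FPKM in the control. Near-zero collagen chains totalled 1.85 CPM after knockdown and 125 CPM in the control. Their lower level after knockdown follows from how they were defined, so it shows no link with the heart muscle markers. They were 6 of the 247 genes (2.43%) at least 20-fold lower. The part of these heart muscle transcripts in the collagen result was not tested.

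Fibroblast markers had 8 genes, summing to 2.28 CPM after knockdown and 9.19 CPM in the control. LUM and PDGFRA (2 counts after knockdown and 93 in the control) were the 2 that could be compared. LUM was at 0 after knockdown, as given above, and the PDGFRA ratio lay past the 20-fold mark. PDGFRB, with the most counts of the list after knockdown, had 42 there and 44 in the control, too few to be compared. FAP was at 0 in both libraries, and DCN had 9 counts after knockdown and 8 in the control. THY1, TCF21 and POSTN had fewer counts after knockdown, also too few to be compared. DCN, LUM and POSTN stand on both the fibroblast and the matrix list. Smooth muscle and pericyte markers summed to 131 CPM after knockdown and 279 CPM in the control, with 5 of 7 compared lower, 2 of them at least 20-fold. RGS5, on that list, stands in 2 rows that were summed. The ranges were 0 to 0.160 FPKM after knockdown and 0 to 0.471 FPKM in the control for fibroblast markers, and 0.00171 to 9.90 FPKM after knockdown and 0.0301 to 15.2 FPKM in the control for the smooth muscle list. The part of these cell types was not tested either.

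Endothelial markers summed to 22.9 CPM after knockdown and 24.0 CPM in the control, with none of 2 past 2-fold and CLDN5 at 0 in both libraries. The 2 went opposite ways, so the sums hide differences. ESAM had 423 counts after knockdown and 283 in the control, and VWF had 141 after knockdown and 284 in the control. Of those with too few counts to compare, CDH5, KDR, TEK and TIE1 had fewer after knockdown, and PECAM1 had 4 in each library. Blood markers summed to 16.4 CPM after knockdown and 21.1 CPM in the control, with 1 compared and CD3E at 0 in both. Colorectal epithelial markers summed to 13999 CPM after knockdown and 14338 CPM in the control, most of it from KRT8, KRT18 and KRT19. Of the 10 markers 9 were compared, and CDX2 alone was at least 2-fold lower on the CPM scale, and within 2-fold with median centring. CDX1 was at 0 in both. In such bulk RNA, fewer cells of a type and less RNA per cell cannot be told apart.

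**Figure D5:**
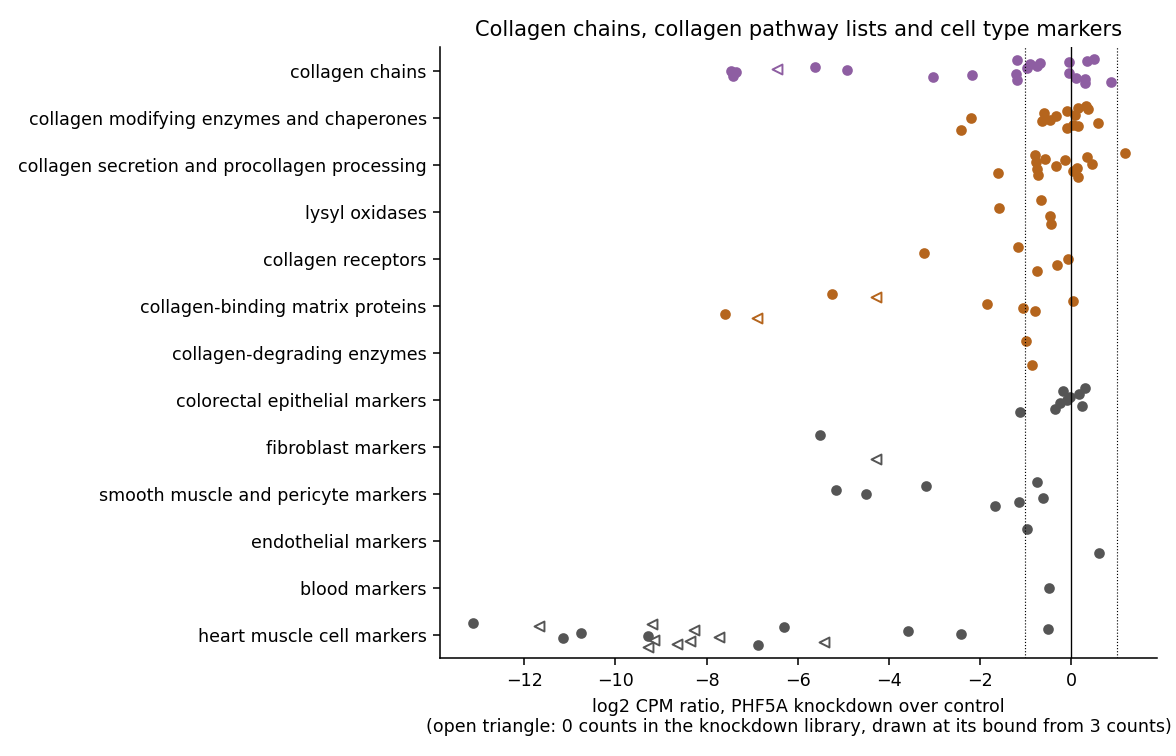
Log2 ratio of knockdown to control CPM for each gene with at least 50 counts in the higher library, for the collagen chains, 6 lists of collagen pathway genes and 6 lists of cell type markers (1 library a group). Open triangles are genes with 0 counts after knockdown, drawn at their bound from 3 counts, and dotted lines mark 2-fold. Collagen chains, collagen-binding matrix proteins and heart muscle markers reach below -6, and the modifying enzymes lie mostly near 0.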

How the data were processed

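Total RNA was extracted with Trizol and made into stranded total RNA libraries, per the labels' protocols. HISAT2 2.0.4 and Cuffdiff were used with hg38 (GRCh38), per the submitters' processing notes. Not given in the sources used here are the annotation, how multiply mapped reads were handled and whether counting used strand. The deposited table held whole-number counts and FPKM per gene and library, per the file headers. The deposited FPKM equals the count per fixed gene length and library total (the lengths computed from each library were within 0.0241% of each other). The entry of 1 gene, broken over 2 lines, was left out, leaving 50867 rows.

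Counts were scaled to library totals (CPM). Ratios carry 95% exact conditional binomial (Clopper-Pearson) intervals, and zeros a floor of 3 counts. These cover counting error only, since reads are not independent molecules. Genes with at least 50 counts in the higher library were compared, because adding 1 to FPKM hides changes of long, low genes. All members with 50 counts were named, and from each pathway list the genes at least 2-fold apart, up to 6. Exceptions are stated. Marker lists are given by counts and sums, and the markers named there were chosen after their values were seen. The members and lists were chosen with earlier results of these data known. Gene type, strand and exons came from GENCODE release 29, and upstream sequence from RefSeq (GRCh38.p14). The calls were tested on simulated data with counting error alone, which does not cover variation between libraries. Alternatives covered the scale, scaling, count minimum and fold. Software was matplotlib 3.10.9, scipy 1.17.1, pandas 2.3.3, numpy 2.4.6 and Python 3.11.15.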

Additional observations from a re-analysis of the deposited data

How the results depend on the processing

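No paired analysis was possible because each group held a single library. The numbers of collagen genes at least 2-fold lower, 2-fold higher and 20-fold lower were 11, 0 and 6, and their median log2 ratio was -0.95. With FPKM and a pseudocount of 1 there were 5 lower of 13, beside 6.2% of all genes, 0 at least 20-fold lower and a median of -0.83. A pseudocount of 0.1 gave 7 lower of 13, beside 12.6% of all genes, and 2 at least 20-fold lower. TPM rescaling with a pseudocount of 1 gave 10 lower of 15, beside 14.5% of all genes, and 0 at least 20-fold lower. These scales compare 13 to 15 members, and the pseudocount itself bounds the fold. Median centring gave 8 lower, 1 higher and a median of -0.72, beside 11.6% lower and 8.13% higher of all genes. Upper-quartile scaling gave 8 lower, 1 higher and -0.68, beside 11.1% and 8.96%. The protein-coding total gave 11 lower, 1 higher and -0.80, beside 13.1% and 6.87%. A minimum of 10 counts gave 17 lower of 33 members compared, beside 21.6% of all genes. No filter with a prior count of 0.5 gave 19 lower and 1 higher of 37, beside 27.9% and 15.6% of all genes. More genes were compared at both settings. A 1.5-fold threshold gave 15 lower and 1 higher of 23, beside 30.9% and 11.6% of all genes. TPM rescaling of the CPM ratios, chosen after seeing the data, moved the median of all genes from -0.24 to -0.66 and that of the collagen genes to -1.38. At that setting 15 of the 23 collagen genes were lower and 0 higher, beside 31.1% and 2.23% of all genes. Over all genes compared before any rescaling, the numbers lower and higher were 2055 and 628. Median centring gave 1437 and 1007, TPM rescaling of the CPM ratios 3854 and 276. None of the 11 lower genes changed direction under the 6 settings tried for single genes, but these settings could not have reversed them. Each shifts all log2 ratios by the same amount, less than the 2-fold mark, or draws them toward 0. COL4A4, COL6A1, COL6A2, COL9A3, COL13A1 and COL16A1, all within 2-fold, changed sign with the scaling. With 1 library per group no value has a replicate check, and small counts add wide intervals for the sparse members.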
